A study of Homo sapiens with 5 samples.

Results

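MKL-2, a line established from a human Merkel cell carcinoma, was compared with MKL-1 and WaGa, lines from other tumours of the same kind. The series held 5 cell lines, all labelled wild type and grown in RPMI medium with serum: MKL-1, MKL-2, WaGa and MCC13 from Merkel cell carcinoma, and REH from a leukemia of B-cell precursors (pre-B-ALL in the labels). It addressed PAX5, a transcription factor of the B lineage, in Merkel cell carcinoma. The 3 lines compared here were chosen by name, 3 of 5 samples, and MCC13 was left out so that it did not set the spread. Each line was represented by 1 library of oligo-dT-selected RNA, so a line and its library cannot be told apart.

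Merkel cell carcinoma is an aggressive neuroendocrine cancer of the skin whose cells express transcription factors, keratins and secretory granule proteins of Merkel cells, the touch-sensing cells of the epidermis. MKL-1, MKL-2 and WaGa are known as suspension-growing lines that carry Merkel cell polyomavirus.

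Transcript levels were taken as TPM, a level corrected for transcript length whose sum is equal in all libraries. Of 57905 genes in the table, 19232 reached 1 TPM in at least 1 of the 3 lines. For each gene the gap was the difference on log2(TPM + 1) between MKL-2 and the nearer of MKL-1 and WaGa, and it was set to 0 where MKL-2 lay between them. Where 3 levels follow each other without names, they are those of MKL-1, MKL-2 and WaGa in that order. This scale understates differences of genes at low levels. A gene was described as standing apart at a gap of 1 or more in size. A gene below 1 TPM in MKL-1 and WaGa could enter the comparison only by being high in MKL-2, so the count of such genes supports nothing by itself. The same holds for such members within the count of each gene list below.

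The labelled cell type was checked against its defining markers. All 12 Merkel cell markers were at 1 TPM or more in each line, and in MKL-2 they ranged from 71.7 TPM (NCAM1, a neural adhesion molecule) to 974 TPM (POU4F3, a Merkel and hair cell transcription factor). Their summed level was 5754 TPM in MKL-2, 4711 in MKL-1 and 8943 in WaGa. Markers of other cell types were low. In RNA of whole cultures, fewer expressing cells and less RNA per cell cannot be told apart. Of 16 leukocyte markers, 4 were at 1 TPM in MKL-2 and 10 were listed at 0, among them CD3E and PTPRC. Of 10 fibroblast markers 2 reached 1 TPM in MKL-2, of 9 endothelial markers 2, of 7 melanocyte markers 2 and of 7 keratinocyte markers 1. Their summed levels in MKL-2 were 28.9 TPM for leukocyte, 3.94 TPM for fibroblast, 11.9 TPM for endothelial, 5.67 TPM for melanocyte and 8.32 TPM for keratinocyte markers.

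MKL-2 stood above both other lines by a gap of 1 or more in 1162 genes, 6.04% of those tested, and below both in 1098 genes, 5.71%. It lay between MKL-1 and WaGa in 6188 genes (32.2%). Gaps of 2 or more were reached by 315 higher and 265 lower genes, and gaps of 4 or more by 50 and 41. By the same count MKL-1 stood apart from the other lines in 1497 genes (7.78%), WaGa in 1738 (9.04%) and MKL-2 in 2260 (11.8%). Across genes, which are not independent replicates, Pearson's r on log2(TPM + 1) was 0.891 between MKL-2 and MKL-1, 0.879 between MKL-2 and WaGa and 0.906 between MKL-1 and WaGa. With MKL-1 alone as the comparison 2077 genes were higher and 2599 lower in MKL-2, and with WaGa alone 2296 were higher and 2479 lower.

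No gene passed a test over the 3 lines. limma, with 1 line against 2, 1 residual degree of freedom and Benjamini-Hochberg adjustment over 19232 genes, called 0 genes, with a lowest adjusted p of 0.546. At an unadjusted limma p under 0.05 there were 1385 genes, 776 higher and 609 lower in MKL-2. An exact permutation of 1 line against 2 cannot give a p below 0.3333. The values below are therefore descriptions of 3 libraries, and the counts of genes standing apart are read against the shares of 6.04% and 5.71% over all tested genes. The median difference between MKL-2 and the mean of the other lines over all tested genes was -0.05. Mitochondrially encoded genes took 6.50% of all TPM in MKL-1, 7.84% in MKL-2 and 6.37% in WaGa.

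The gene with the largest gap was SOX2-OT, a long non-coding RNA whose gene overlaps SOX2, at 542 TPM in MKL-2, against 0.863 in MKL-1 and 0.374 in WaGa. The difference of MKL-2 from the nearer line was 8.19 on log2(TPM + 1), with an SE of 0.57 for the difference from the mean of both (limma, adjusted p = 0.546). SOX2 itself, a stem cell and neuroendocrine transcription factor, stood at 440.1 TPM in MKL-2, against 118 in MKL-1 and 124 in WaGa, a gap of 1.82. Reads in the shared stretch may have been split between these genes by a rule that is not stated. In MCC13 SOX2 stood at 0.945 TPM and SOX2-OT at 0.0693 TPM, so among all 5 lines MKL-2 held the highest level of each.

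Other genes with large gaps were close to silent in MKL-1 and WaGa. DSP, which encodes the desmosomal protein desmoplakin, stood at 114 TPM in MKL-2, against 0.0128 in MKL-1 and 0.0633 in WaGa. POU4F2, a neuronal homeobox factor related to POU4F3, stood at 0.432, 85.6 and 0.0711 TPM. RORB, an orphan nuclear receptor of neurons, stood at 0.0131, 95.3 and 0.593 TPM. All 3 were thus near the floor of the scale in both other lines. SLC12A7, a potassium-chloride cotransporter, stood at 891 TPM in MKL-2, against 1.92 in MKL-1 and 11.9 in WaGa, a gap of 6.11. NELL1, a secreted glycoprotein, stood at 6.29, 292 and 0.854 TPM, and CLDN3, a tight junction claudin, at 0.113, 44.8 and 0.177 TPM. Unlike DSP, the genes SLC12A7 and NELL1 were also detected above 1 TPM in MKL-1.

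The remaining genes among the 20 with the largest gaps were PRNP (prion protein), CPM (a membrane carboxypeptidase), SLC6A19 (a neutral amino acid transporter), STC1 (the secreted hormone stanniocalcin), BLK (a B-cell tyrosine kinase), PSMB8 and TAP1 (antigen processing), KRT9 (a keratin of palm and sole skin), ADAM28 (a membrane metalloprotease), LIFR (the receptor of leukemia inhibitory factor), MOBP (a myelin protein), GNA15 (a G protein subunit) and ALPK3 (a kinase of muscle). Their levels in MKL-2 ran from 26.9 TPM (LIFR) to 248 TPM (STC1), with gaps from 4.67 (ALPK3) to 5.24 (PRNP). Neither MKL-1 nor WaGa exceeded 6.28 TPM for any of them. BLK stood at 34.3 TPM in MKL-2, against 85.7 in REH, and at 0.0576 TPM or less in MKL-1 and WaGa. Among non-coding genes TRHDE-AS1 stood at 15.1 TPM in MKL-2, at 0.0114 in MKL-1 and was listed at 0 in WaGa. TRHDE, the gene for an enzyme that degrades thyrotropin-releasing hormone, from whose locus it is named, stood at 10.1 TPM in MKL-2 and was listed at 0 in both others. MIR4635, at 42.2 TPM in MKL-2, lies within SLC12A7, and its level cannot be told apart from that of its host.

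**Figure D1:**
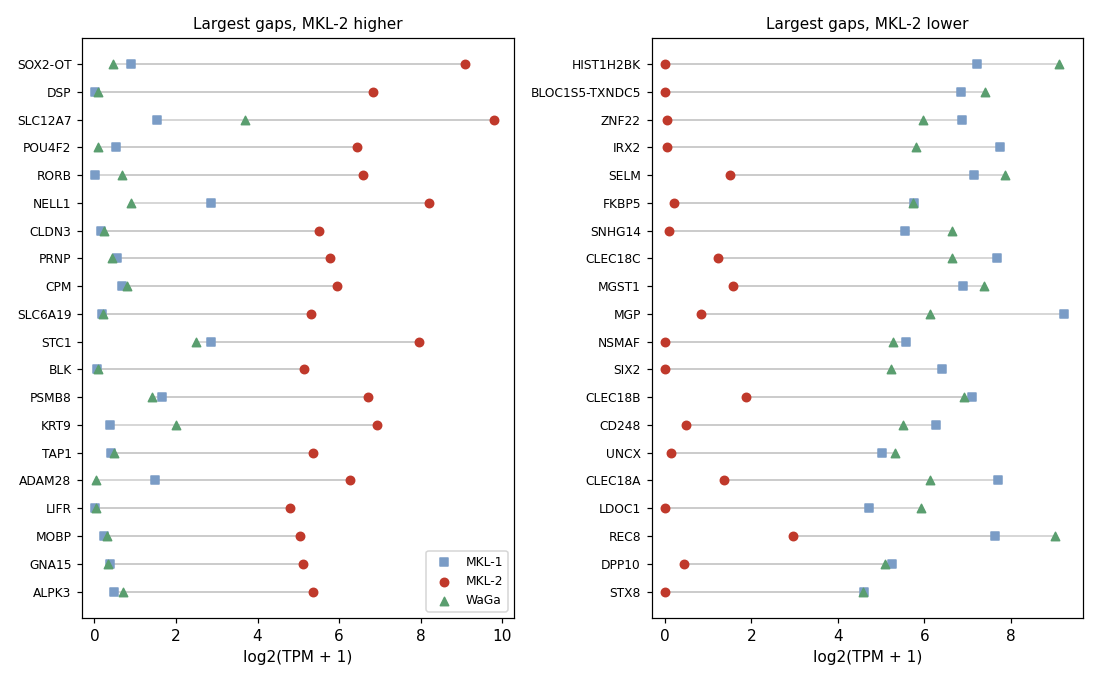
The level on log2(TPM + 1) (x axis) is plotted for the 20 genes with the largest gap in each direction, 1 point per line (1 library each). MKL-2 (circles) lies far to the right of MKL-1 and WaGa in the left panel and far to the left in the right panel, with gaps from 4.67 to 8.19 and from -4.58 to -7.20.

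Among the genes that were lower in MKL-2, several were listed at 0. HIST1H2BK, a histone H2B gene, stood at 146 in MKL-1 and 553 TPM in WaGa and was listed at 0 in MKL-2. Its neighbours HIST1H2BJ and HIST1H2AG were also listed at 0 in MKL-2, against 3.59 and 14.3 TPM for HIST1H2BJ and 1.51 and 6.27 TPM for HIST1H2AG in MKL-1 and WaGa. A gene listed at 0 may also be one whose level could not be estimated. Of genes at 10 TPM or more in both other lines, 17 were listed at 0 in MKL-2, against 4 for MKL-1 and 10 for WaGa counted the same way. BLOC1S5-TXNDC5, a readthrough of neighbouring genes, was 1 of the 17, with 114 in MKL-1 and 167 TPM in WaGa. The genes it joins were not low in MKL-2: TXNDC5 stood at 131, 194 and 153 TPM and BLOC1S5 at 19.4, 20.7 and 16.0 TPM.

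Other low genes kept a trace of signal in MKL-2. ZNF22, a zinc finger gene, stood at 0.0328 TPM in MKL-2, against 115 in MKL-1 and 61.1 in WaGa, a gap of -5.91. FKBP5, a co-chaperone of steroid hormone receptors, stood at 53.1, 0.168 and 52.3 TPM, a gap of -5.51 with MKL-1 and WaGa at nearly the same level. IRX2, an Iroquois homeobox factor, stood at 212, 0.0324 and 55.3 TPM. ZNF22 and FKBP5 were at 29.2 TPM or more in MCC13 and REH, so MKL-2 was the lowest of all 5 lines, whereas IRX2 was at 0.103 TPM in MCC13 and listed at 0 in REH. MGP, an inhibitor of matrix calcification, stood at 592, 0.786 and 68.8 TPM. MGST1, a membrane-bound glutathione transferase, stood at 118, 1.98 and 166 TPM. CRABP1, which binds retinoic acid in the cytoplasm, was among the most abundant genes of this kind, at 1119, 41.8 and 673 TPM.

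SNHG14, the long non-coding host transcript downstream of SNRPN in the Prader-Willi and Angelman region, stood at 0.0744 TPM in MKL-2, against 46.1 in MKL-1 and 99.2 in WaGa. SNRPN, at the start of that region, stood at 172, 223 and 148 TPM, so the neighbouring transcript was highest in the line where SNHG14 was near 0. DPP10, an accessory subunit of potassium channels, stood at 37.3, 0.356 and 33.1 TPM, and its antisense gene DPP10-AS1 at 21.3 and 24.4 TPM in MKL-1 and WaGa and was listed at 0 in MKL-2. CLEC18A, CLEC18B and CLEC18C stood between 1.33 and 2.70 TPM in MKL-2 and between 69.1 and 206 TPM in the other lines. They are near-identical copies, among which reads cannot be assigned with certainty. MIR140 stood at 0.714 TPM in MKL-2 against 29.3 and 144 TPM, within its host WWP2, which stood at 99.96, 37.5 and 420.5 TPM. The other genes among the 20 largest were SELM, NSMAF, SIX2, CD248, UNCX, LDOC1, REC8 and STX8, with gaps from -5.63 (SELM) to -4.58 (STX8).

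By count, MKL-2 held more such on and off patterns than either other line. There were 78 genes at 10 TPM or more in MKL-2 and under 1 TPM in both others, against 31 for MKL-1 and 52 for WaGa. There were 68 genes under 1 TPM in MKL-2 and at 10 TPM or more in both others, against 23 for MKL-1 and 49 for WaGa. Of the 78 genes, 41 reached 1 TPM in MCC13, 29 in REH and 29 in neither. Among all genes higher in MKL-2, 53.6% reached 1 TPM in MCC13 and 48.8% in REH, below the 75.3% and 73.2% of all tested genes. Among the genes lower in MKL-2 these shares were 70.5% and 62.0%. Matching shares for genes apart in MKL-1 or WaGa were not examined, so these shares cannot be called particular to MKL-2.

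Most Merkel cell identity genes were expressed in all 3 lines. Of 24 genes of the Merkel and neuroendocrine list 23 were tested, 4 were higher in MKL-2 and 0 were lower, with a median difference of 0.40. ATOH1, the basic helix-loop-helix factor that founds the Merkel lineage, stood at 789 TPM in MKL-2, against 1067 in MKL-1 and 869 in WaGa. INSM1, a neuroendocrine zinc finger factor, was nearly level at 582, 573 and 572 TPM. KRT20, the keratin used to diagnose this cancer, stood at 14.5, 203 and 466 TPM, so MKL-2 was intermediate. CHGA, the granule protein chromogranin A, stood at 659, 540 and 3693 TPM and was highest in WaGa. The members standing apart in MKL-2 were SOX2, RAB3C (a vesicle GTPase) at 0.0235, 20.6 and 0.126 TPM, PROX1 (a homeobox factor of neuroendocrine cells) at 34.5, 127 and 42.8 TPM, and NKX2-2 (a homeobox factor of neural and islet cells) at 1.85 TPM in MKL-2.

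Of 12 tested genes for granins and prohormone processing 2 were higher in MKL-2, both of them enzymes. PCSK2, a convertase that cleaves prohormones in granules, stood at 655 TPM in MKL-2, against 70.4 in MKL-1 and 163 in WaGa, and PAM, which amidates peptides, at 15.8, 89.8 and 5.72 TPM. In both cases MKL-2 was the highest line. The related convertase PCSK1 stood at 172, 100.5 and 29.99 TPM, with MKL-2 in the middle. Of 17 tested neuropeptide genes 4 were higher (ADCYAP1, NMB, ADM2 and NTS) and 1 was lower, NMU, at 28.7, 1.69 and 9.14 TPM. NMB, which encodes neuromedin B, stood at 5.10, 19.96 and 4.61 TPM, and its receptor NMBR at 0.334, 2.91 and 0.220 TPM. SSTR2, the somatostatin receptor, was lower in MKL-2, at 18.3, 3.64 and 51.5 TPM.

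Some neuronal genes stood apart in each direction. The list shares below are to be read against 6.04% higher and 5.71% lower over all tested genes. Of 25 synaptic vesicle genes 5 were higher and 3 lower (20% and 12%). RIMS1, an active zone scaffold, stood at 8.07, 45.9 and 0 TPM, and SV2B, a vesicle glycoprotein, at 17.4, 3.13 and 34.9 TPM. Of 44 ion channel genes 4 were higher and 5 lower (9.09% and 11.4%), with a median difference of -0.22. The lower ones included CACNA1H, a T-type calcium channel, at 69.4, 2.42 and 83.1 TPM. Of 23 receptors for glutamate, GABA, glycine and acetylcholine 4 were higher and 3 lower (17.4% and 13.0%). GRIK5, a kainate receptor subunit, stood at 62.3, 3.34 and 77.0 TPM. CHRNB4, a nicotinic receptor subunit, stood at 19.01, 1.33 and 95.1 TPM. Both receptors were thus low in MKL-2 alone among the 3 lines. Of 48 axon guidance genes 4 were higher and 6 lower (8.33% and 12.5%), with a median difference of 0.01. SEMA3F, a repulsive guidance cue, was lower at 52.8, 4.51 and 120 TPM.

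Adhesion molecules stood apart in both directions, cadherins and protocadherins mostly upward. Of 21 tested cadherins and protocadherins, 8 were higher and 2 lower in MKL-2 (38.1% and 9.52%). PCDH10 stood at 65.2 TPM in MKL-2, against 2.91 in MKL-1 and 0.207 in WaGa. CDH20 stood at 1.32, 45.2 and 0.0992 TPM and PCDH9 at 26.6, 173 and 12.6 TPM. The members at the opposite end were CDH3 (P-cadherin) at 62.3, 27.5 and 67.8 TPM and CDH7 at 5.43, 0.479 and 2.51 TPM. CDH2 (N-cadherin), the most abundant member in MKL-2, lay between the other lines at 200.2, 175 and 117 TPM. Epithelial junction genes included the desmosomal members DSP and DSC2, CLDN3 and the epithelial transcription factor ELF3 among 4 higher of 30, and ST14 and CDH3 as the 2 lower ones. Those 4 were under 1 TPM in both other lines and were tested only because MKL-2 was high. Over the list the median difference was -0.37, and 21 of the 30 lay below the mean of the other lines. CD44, the hyaluronan receptor, stood at 107, 10.2 and 1289 TPM.

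Homeobox genes of the HOX clusters, which set position along the body axis, were more often higher than lower in MKL-2. Of 23 tested HOX genes 8 were higher and 1 was lower in MKL-2 (34.8% and 4.35%), with a median difference of 0.90. HOXA10 stood at 72.8 TPM in MKL-2, against 13.7 in MKL-1 and 5.96 in WaGa, and HOXD10 at 0.278, 65.6 and 20.2 TPM. HOXA13, HOXA11 and HOXD13, from the ends of their clusters that pattern distal structures, stood at 5.30, 3.84 and 2.26 TPM in MKL-2 and at 0.0753 TPM or less in the others. They were thus tested only because MKL-2 was high. HOXD4, the lower member, stood at 33.8, 13.2 and 31.0 TPM. HOXC4, whose symbol 2 gene IDs carry, was left out of the counts: one ID was lower, at 23.2, 0.722 and 9.13 TPM, and the other higher, at 0.355, 4.38 and 0.487 TPM. Of 42 homeobox factors outside the HOX and PAX families 10 were higher and 4 lower. OTX2, a forebrain factor, stood at 12.4 TPM in MKL-2 and was listed at 0 in the other lines. In the opposite direction POU3F2, a neuronal POU factor, stood at 77.7, 16.7 and 75.0 TPM and POU2F3, the tuft cell factor, at 3.37, 0.0126 and 12.0 TPM.

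PAX genes gave 2 higher members of 5 tested, PAX9 and PAX2, which were tested only because MKL-2 was high. PAX9, a factor of tooth and thymus development, stood at 12.2 TPM in MKL-2, at 0.0374 in WaGa and was listed at 0 in MKL-1. PAX2, a kidney and ear factor, stood at 0.104, 1.54 and 0.0991 TPM. PAX5 itself lay between the other lines, at 75.03 TPM in MKL-2, against 91.9 in MKL-1 and 38.4 in WaGa. PAX6 stood at 65.4, 109 and 78.1 TPM, a gap of 0.47. PAX8 stood at 3.18 and 3.30 TPM in MKL-1 and MKL-2 and was listed at 0 in WaGa. Among 13 early B lineage genes 2 were higher in MKL-2 (BLK and CD79A) and 2 lower. CD79A, a chain of the B-cell receptor complex, stood at 0.932, 7.67 and 2.02 TPM, while CD79B, its partner, stood at 27.997, 0.799 and 10.5 TPM. DNTT, the template-independent polymerase of antigen receptor joining, stood at 22.4, 0.383 and 2.06 TPM.

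PAX5 exon use in MKL-2 was close to that in the other lines. The deposited exon values corresponded to 26222 reads in MKL-2, 45715 in MKL-1 and 13500 in WaGa, and shares below are of reads outside the long last exon E10. Intervals are exact 95% binomial intervals that cover counting error only, and the reads would be more numerous if all counts had 1 divisor in common. The alternative first exon E1B held 24.5% of reads in MKL-2 (23.5 to 25.5), 20.2% in MKL-1 (19.5 to 20.9) and 24.2% in WaGa (22.8 to 25.5). The other first exon, E1A, held 0.571% in MKL-2 (0.414 to 0.769), 1.07% in MKL-1 (0.901 to 1.27) and 0.744% in WaGa (0.503 to 1.06). Exon E8 held 5.90% in MKL-2 (5.38 to 6.46), 7.33% in MKL-1 (6.88 to 7.80) and 7.69% in WaGa (6.89 to 8.56). The E8 interval of MKL-2 lay below both others, and its E1B and E1A intervals overlapped those of WaGa alone. With 1 library per line, differences between preparations of the same line were not measured.

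Several genes of antigen presentation and interferon response were higher in MKL-2 than in both other lines. MHC class I molecules display peptides that the immunoproteasome cuts, that the TAP transporter carries into the endoplasmic reticulum and that aminopeptidases trim. The interferon response is the set of antiviral genes switched on through STAT and IRF factors. Of these, IRF factors bind a repeat of GAAA separated by a pair of bases. Of 22 tested genes of the class I list 5 were higher and 0 lower in MKL-2 (22.7%), with a median difference of 0.45. Of 28 tested interferon and nucleic acid sensing genes 10 were higher and 0 lower (35.7%), with a median difference of 1.24, and 21 of the 28 lay above both other lines by any amount. Members under 1 TPM in both MKL-1 and WaGa were tested only because MKL-2 was high, so the filter fixed their direction. Among the higher members these included TAP1 and PSMB9 of the class I list. On the interferon list they included BST2, MB21D1, PARP9 and DTX3L, so these shares do not by themselves show a direction.

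The promoters of TAP1, BST2 and IFI6 are shown because these members stood apart and their windows hold that repeat, searched as GAAA, any pair of bases and GAAA again, on both strands. Each window runs from 250 bases before to 50 bases after the start in RefSeq on GRCh38.p14, 5′ to 3′ along the gene, with the matches in capitals.
TAP1, chr6:32853655-32853954, minus strand: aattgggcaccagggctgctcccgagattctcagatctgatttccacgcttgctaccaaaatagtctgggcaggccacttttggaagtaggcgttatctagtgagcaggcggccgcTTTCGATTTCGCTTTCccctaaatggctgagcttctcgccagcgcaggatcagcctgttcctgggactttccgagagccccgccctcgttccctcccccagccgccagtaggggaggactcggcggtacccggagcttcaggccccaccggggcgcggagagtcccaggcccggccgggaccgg
BST2, chr19:17405581-17405880, minus strand: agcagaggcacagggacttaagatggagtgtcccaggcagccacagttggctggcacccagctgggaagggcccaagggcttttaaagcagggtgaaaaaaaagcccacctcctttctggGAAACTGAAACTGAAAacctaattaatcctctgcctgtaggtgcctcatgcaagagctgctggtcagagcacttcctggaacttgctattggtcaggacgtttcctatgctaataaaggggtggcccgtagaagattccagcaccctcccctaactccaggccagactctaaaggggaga
IFI6, chr1:27672143-27672442, minus strand: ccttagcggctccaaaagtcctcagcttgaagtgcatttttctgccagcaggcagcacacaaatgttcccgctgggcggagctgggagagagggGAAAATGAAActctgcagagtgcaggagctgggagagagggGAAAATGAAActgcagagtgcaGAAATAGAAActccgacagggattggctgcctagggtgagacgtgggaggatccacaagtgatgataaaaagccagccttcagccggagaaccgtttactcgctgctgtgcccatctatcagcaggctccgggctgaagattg

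In the TAP1 window the repeat occurred 2 times, on the opposite strand, from base 117 to the match that starts at base 123, counted from 1 at the 5′ end. In the BST2 window 2 overlapping matches started at bases 121 and 127, and in the IFI6 window 3 matches started between bases 95 and 158. The repeat was present in 3.57% of all 35116 promoters. A gene was counted when any of its promoters held it, which was the case for 3.68% of 10954 tested protein-coding genes with a promoter, for 43 of 630 genes higher in MKL-2 (6.83%) and for 2.93% of those lower. Genes higher in MKL-2 had a mean of 1.61 promoters each, against 1.47 over all these tested genes. Of the interferon list the repeat was found in 9 of 9 higher genes and in 5 of 13 others, with a mean of 1.56 promoters per higher gene and 1 per other gene. Of the class I list it was found in 3 of 4 higher genes and in 7 of 14 others, with means of 1.75 and 1.14 promoters. The higher genes of both lists include members tested only because MKL-2 was high, such as BST2 and TAP1. A match describes these letters and does not show that a factor binds there.

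Among members of the class I list with 1 gene ID, PSMB8, TAP1 and PSMB9 had the largest gaps. PSMB8, an immunoproteasome subunit, stood at 104 TPM in MKL-2, against 2.17 in MKL-1 and 1.64 in WaGa. Its partner PSMB9 stood at 10.6 TPM in MKL-2 and was listed at 0 in both others. PSMB10, a further immunoproteasome subunit, stood at 7.44, 10.02 and 9.76 TPM, and the proteasome activator genes PSME1 and PSME2 had gaps of 0.37 and 0.03. TAP1, a subunit of the peptide transporter, stood at 0.333, 40.2 and 0.399 TPM. TAP2, the other subunit, was left out of the counts because 2 gene IDs carry its symbol, and the ID with the higher level stood at 2.52, 58.6 and 0.368 TPM. PSMB8, PSMB9 and TAP1, neighbours in the class II region of chromosome 6, were thus each highest in MKL-2 among the 3 lines. In MCC13 and REH PSMB8 stood at 177 and 432 TPM and TAP1 at 91.5 and 123 TPM, above MKL-2 in each case. ERAP2, a trimming aminopeptidase, stood at 1.37, 9.58 and 0.113 TPM.

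The class I heavy chains were not alike. HLA-E stood at 695 TPM in MKL-2, against 206 in MKL-1 and 65.4 in WaGa, a gap of 1.75. HLA-B, by contrast, stood at 0.0637, 15.1 and 322 TPM and HLA-C at 0.933, 15.5 and 243 TPM, so MKL-2 was far below WaGa for both. B2M, the common light chain, stood at 256, 397 and 83.0 TPM. HLA genes are polymorphic relatives, so reads of 1 may have been counted for another or lost. CD74, the invariant chain of class II, stood at 0.726, 12.5 and 0.986 TPM.

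Among interferon-stimulated genes the most abundant in MKL-2 was IFI6, a mitochondrial survival protein, at 1058 TPM in MKL-2, against 293 in MKL-1 and 118 in WaGa. BST2, the tether that retains budding virions, stood at 0.0358, 10.7 and 0.122 TPM. DTX3L and PARP9, which form a ubiquitin ligase complex and share a start region, stood at 7.78 and 7.07 TPM in MKL-2 and at 0.182 TPM or less in the others. MX1, an antiviral GTPase, stood at 0.266, 6.45 and 0.0162 TPM. Most of these genes were low in absolute terms even in MKL-2. Of the sensors, MB21D1, which encodes the DNA sensor cGAS, stood at 0.415, 10.3 and 0.192 TPM, and IFIH1, the RNA sensor MDA5, at 14.7, 34.9 and 0.455 TPM. The signalling factor STAT2 stood at 45.5, 24.6 and 34.8 TPM, with MKL-2 the lowest line. Chemokine genes gave 6 higher of 15 tested and 0 lower, led by CCL2, a chemokine that draws monocytes, at 0.417, 28.4 and 0.0610 TPM, and including CXCL10, an interferon-induced chemokine, at 4.15 TPM in MKL-2. CCL2 and CXCL10 were tested only because MKL-2 was high.

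Genes known to respond to low oxygen formed the list with the most members apart. Under low oxygen the HIF transcription factors bind a core of ACGTG and raise glycolytic enzymes, vessel growth factors and mitophagy genes. The list was added after values of these data were seen, so its count is a description of genes partly chosen for it. Of 44 tested members 24 were higher and 0 lower in MKL-2 (54.5%), 39 lay above both other lines, and the median difference was 1.44. EGLN1, a HIF prolyl hydroxylase, was just past the gap of 1, at 1.01, and ALDOA, an aldolase, just short of it, at 0.99. Oxygen and culture density were not given in the labels.

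The promoters of LDHA, PGK1 and ALDOC are shown for the glycolytic members with this core. They are again RefSeq windows on GRCh38.p14, 5′ to 3′, with ACGTG on either strand in capitals, where a palindromic CACGTG counts on both strands.
LDHA, chr11:18394313-18394612, plus strand: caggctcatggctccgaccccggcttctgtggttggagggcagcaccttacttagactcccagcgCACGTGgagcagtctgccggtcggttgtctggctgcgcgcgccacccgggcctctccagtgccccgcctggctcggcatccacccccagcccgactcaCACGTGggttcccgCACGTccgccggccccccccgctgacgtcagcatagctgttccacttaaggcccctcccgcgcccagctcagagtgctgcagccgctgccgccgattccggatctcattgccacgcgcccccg
PGK1, chrX:78103998-78104297, plus strand: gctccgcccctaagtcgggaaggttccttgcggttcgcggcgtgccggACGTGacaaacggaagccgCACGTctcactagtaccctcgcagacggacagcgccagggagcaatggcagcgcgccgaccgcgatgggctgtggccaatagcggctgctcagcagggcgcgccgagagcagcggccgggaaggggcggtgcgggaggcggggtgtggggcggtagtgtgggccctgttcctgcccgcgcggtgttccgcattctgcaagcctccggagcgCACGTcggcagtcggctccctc
ALDOC, chr17:28576846-28577145, minus strand: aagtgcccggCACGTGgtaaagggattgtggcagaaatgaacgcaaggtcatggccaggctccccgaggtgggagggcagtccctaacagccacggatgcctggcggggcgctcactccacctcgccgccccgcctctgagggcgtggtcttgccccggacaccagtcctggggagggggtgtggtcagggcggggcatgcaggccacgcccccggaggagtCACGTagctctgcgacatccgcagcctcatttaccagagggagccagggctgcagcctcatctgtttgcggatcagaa

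The LDHA window held 5 matches, the PGK1 window 3 and the ALDOC window 3. The first and last matches started at bases 66 and 178 in LDHA, 49 and 279 in PGK1 and 11 and 223 in ALDOC. The core is short and frequent: it occurred in 21.4% of all promoters and, by gene, in 31.7% of tested protein-coding genes and 31.1% of those higher in MKL-2. In the hypoxia list it was found for 15 of 20 higher members and 10 of 17 others with a promoter, which had on average 1.65 and 1.47 promoters each.

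Lactate and glycolysis genes carried high levels. LDHA, which makes lactate from pyruvate, stood at 768 TPM in MKL-2, against 106 in MKL-1 and 84.7 in WaGa, a gap of 2.85 with an SE of 0.34 for the difference from the mean of both (limma, adjusted p = 0.546). HK2, the inducible hexokinase, stood at 2.13, 32.6 and 2.80 TPM. ALDOC, the brain aldolase, stood at 2.36, 393 and 62.2 TPM. In each of them MKL-2 was the highest line, though ALDOC also separated MKL-1 from WaGa. GPI stood at 176, 948 and 277 TPM, PGK1 at 256, 802 and 227 TPM and PKM at 584, 1539 and 310.1 TPM. The most abundant enzyme, GAPDH, stood at 4421, 5927 and 3344 TPM, a gap of 0.42, and LDHB, the other lactate dehydrogenase subunit, at 1361, 993 and 920 TPM, between the other lines. Of 23 tested enzymes on the glycolytic list, also added after values were seen and sharing most of its higher genes with the hypoxia list, 10 were higher and 0 lower.

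Outside glycolysis the hypoxia members were secreted factors, regulators and membrane proteins. VEGFA, the vascular growth factor, stood at 379 TPM in MKL-2, against 59.4 in MKL-1 and 123 in WaGa. NDRG1, a stress-induced differentiation gene, stood at 21.1, 402 and 11.2 TPM. CA9, a membrane carbonic anhydrase, stood at 128, 587 and 81.9 TPM. BNIP3 and BNIP3L, receptors of mitophagy, stood at 434 and 117 TPM in MKL-2, with gaps of 1.87 and 1.56. Not every member followed: ADM, which encodes adrenomedullin, stood at 19.1, 67.9 and 83.0 TPM and DDIT4, an inhibitor of mTOR, at 403, 361 and 102 TPM, so MKL-2 lay between the others. The plot of hypoxia and interferon members gives the level of each gene standing apart.

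**Figure D2:**
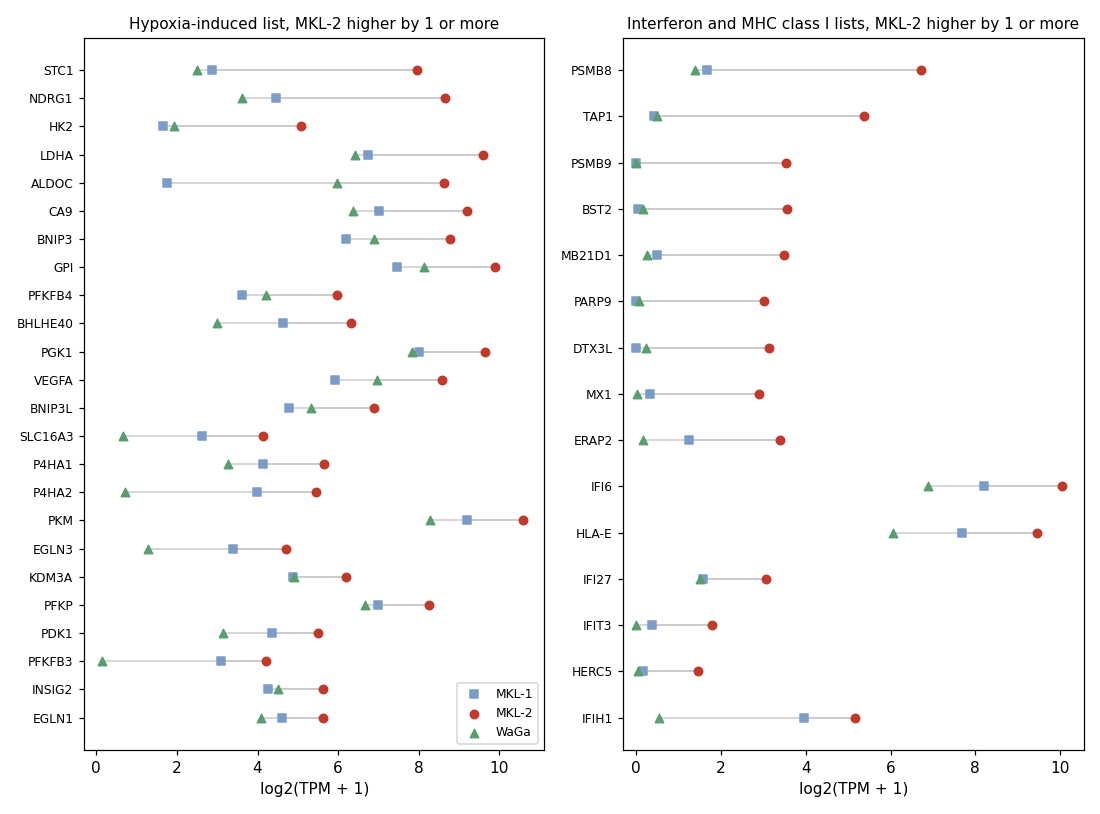
The level on log2(TPM + 1) (x axis) is plotted for members of the hypoxia list (left) and of the interferon and MHC class I lists (right) with a gap of 1 or more, 1 point per line (1 library each). MKL-2 (circles) is to the right of both lines in each gene shown because genes were chosen by that gap; the hypoxia members were above 1 TPM in MKL-1, while most interferon members were below it in MKL-1 and WaGa.

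Genes that handle oxidants and metals were more often lower than higher. Of 35 detoxification and redox genes 8 were lower and 5 higher in MKL-2, with a median difference of -0.42. GSTP1, the main glutathione transferase of many tumours, stood at 52.0 TPM in MKL-2, against 522 in MKL-1 and 2072 in WaGa. On a list of glutathione transferases added after values were seen, 8 of 16 tested members were lower and 0 higher, including GSTO2 at 16.4, 1.303 and 14.5 TPM. Metallothioneins, zinc and copper binding proteins, were lower in 4 of 5 tested genes of an added list, with MT2A at 107, 35.6 and 144 TPM. GSTT2 and GSTT2B, the GSTM genes and the MT1 genes are close copies and their levels are uncertain. Against this direction SLC7A11, the cystine importer that feeds glutathione synthesis, stood at 9.77, 48.7 and 0.435 TPM.

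Of 31 tested apoptosis genes 2 were higher and 3 lower in MKL-2 (6.45% and 9.68%), near the shares over all genes, with a median difference of -0.19. The higher members were TNFRSF21, a receptor with a death domain, at 1.72, 29.2 and 0.919 TPM, and TNFRSF19, another receptor of the TNF receptor family, with a gap of 1.99. The lower members were BOK, a BCL2 family gene, with a gap of -1.63, and the activators of cell death BMF and BBC3, BMF at 145, 39.9 and 157 TPM and BBC3 at 15.1, 6.11 and 31.7 TPM.

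Cell cycle genes differed little. Of 52 tested cell cycle and tumour suppressor genes 4 were higher and 3 lower, near the shares over all genes. CCNA1, a germline cyclin, stood at 4.63, 89.7 and 1.56 TPM, and CDKN2B, the p15 inhibitor, at 48.1 TPM in MKL-2, 4.19 TPM in WaGa and was listed at 0 in MKL-1. CDKN1A, the p21 cell cycle inhibitor, stood at 76.4, 50.1 and 82.8 TPM, a gap of -0.60. Cytoplasmic ribosomal protein genes gave 1 member apart of 53 tested, RPS20, at 933, 339 and 997 TPM, and a median difference of -0.23. Mitochondrially encoded genes had 0 members apart of 15 and a median difference of 0.30.

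Signalling pathways held members in both directions. Of 41 receptor tyrosine kinases and growth factors 8 were higher and 4 lower. MET, the hepatocyte growth factor receptor, stood at 14.9 TPM in MKL-2, at 0.00848 in WaGa and was listed at 0 in MKL-1, while MCC13 stood at 424 TPM. NTRK3, the neurotrophin-3 receptor, stood at 0.546, 30.9 and 0.836 TPM. ERBB3, the neuregulin receptor, was lower in MKL-2 at 71.4, 26.5 and 57.1 TPM. Of 23 Notch pathway genes 5 were higher and 4 lower: NOTCH2 stood at 3.76, 14.0 and 0.0783 TPM and NOTCH1 at 16.5, 0.957 and 20.5 TPM, so these receptors differed in opposite directions. Of 37 TGF-beta and BMP genes 6 were higher and 6 lower, the latter led by ID1, a BMP target, at 44.0, 6.65 and 43.4 TPM. Of 32 Wnt genes 6 were higher and 1 lower, the former led by NKD2, a Wnt antagonist, at 4.18, 321 and 17.8 TPM.

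Imprinted genes, expressed from 1 parental copy, gave 5 higher and 0 lower of 20 tested on the list. SNHG14 of the Prader-Willi and Angelman region, lower in MKL-2 as described above, was not on this list. H19, a non-coding growth regulator, stood at 113 TPM in MKL-2, against 29.9 in MKL-1 and 10.9 in WaGa, and PEG3, a zinc finger gene, at 139, 345 and 91.5 TPM. PEG10, a retrotransposon-derived gene, was at 253 and 235 TPM in MKL-1 and MKL-2 and listed at 0 in WaGa. Of 45 cancer-testis antigens only 4 reached 1 TPM in any of the 3 lines, and 0 stood apart in MKL-2. Of 15 immune checkpoint ligands 6 were tested, and CD200, which restrains myeloid cells, was lower at 68.9, 6.39 and 62.9 TPM. Of 23 tested cell surface targets 2 were higher and 3 lower (8.70% and 13.0%). PROM1, the stem cell antigen CD133, was among the lower at 9.80, 0.698 and 2.87 TPM.

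**Figure D3:**
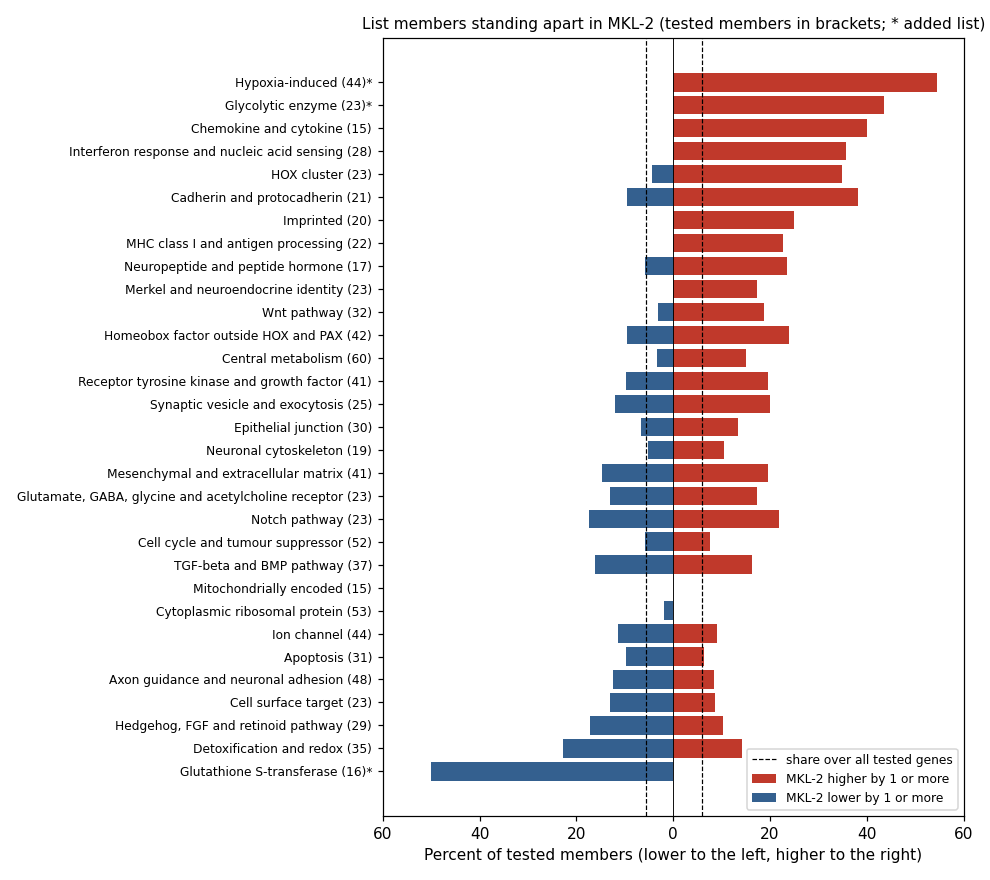
The percent of tested members of each gene list reported here with 15 or more tested members that stood apart in MKL-2 by a gap of 1 or more is plotted, higher to the right and lower to the left, with the number tested in brackets and an asterisk for lists added last; all lists were chosen with earlier results of these data known. Dashed lines mark 6.04% and 5.71%, the shares over all 19232 tested genes; the hypoxia list reaches 54.5% on the right and the glutathione transferase list 50% on the left.

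Genes near the start of chromosome 5 stood apart in close succession. In gene order among tested protein-coding genes, PDCD6, a calcium-binding protein of membrane repair, came 4th and stood at 1851 TPM in MKL-2, against 122 in MKL-1 and 89.2 in WaGa. NKD2, SLC12A7 and SLC6A19 followed at places 14 to 16, then SLC6A18, another amino acid transporter, at 0.997, 32.0 and 2.06 TPM. TERT, the catalytic subunit of telomerase, came 18th, at 3.04, 14.8 and 1.97 TPM, below its 170.5 TPM in REH. CLPTM1L stood at 164, 346 and 159 TPM, and LPCAT1, a phospholipid-remodelling enzyme, at 92.4, 1357 and 134 TPM. Nearby genes did not share the pattern: SDHA, a subunit of succinate dehydrogenase, stood at 232 TPM in MKL-2, against 201 in MKL-1 and 226 in WaGa. BRD9, a chromatin remodelling subunit, was at 58.5, 53.1 and 43.5 TPM, and TPPP, a tubulin-binding protein, was lower at 9.72, 0.782 and 6.17 TPM. SLC6A3, the dopamine transporter, stood at 0.997, 37.2 and 49.7 TPM, with MKL-2 between the others. A short way on, IRX2 and its neighbour C5orf38 were lower in MKL-2, C5orf38 at 49.5, 1.14 and 30.6 TPM.

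**Figure D4:**
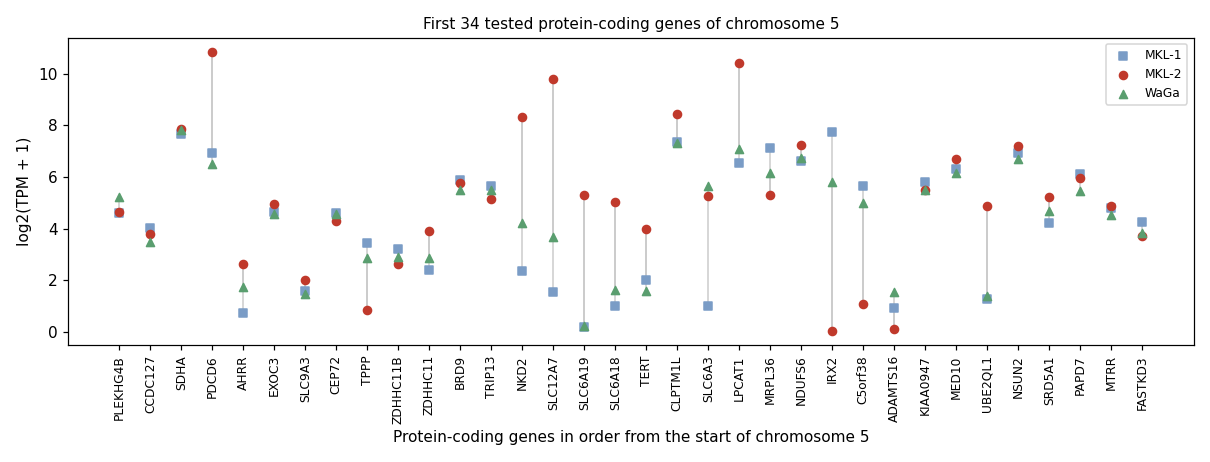
The level on log2(TPM + 1) (y axis) is plotted for the first 34 tested protein-coding genes of chromosome 5 in gene order (x axis, evenly spaced), 1 point per line (1 library each). PDCD6, the genes from NKD2 to CLPTM1L, LPCAT1 and UBE2QL1 have MKL-2 (circles) above both lines, IRX2 and C5orf38 have it below, and most other genes have the 3 points close together.

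Smaller differences extended over long stretches of other chromosomes. They were read from 10668 genes at 5 TPM or more in all 3 lines, in the order of GENCODE 29, as the difference of MKL-2 from the mean of MKL-1 and WaGa. The median was -0.05 over all these genes, -0.46 on chromosome 10, where 60.4% of genes lay below both lines, and -0.46 on chromosome 3, where 57.1% did. It was -0.26 on chromosome 17 and 0.20 on chromosome 5. A running median over 25 genes, which leaves 12 genes at each chromosome end without a value, gave stretches of 25 or more genes beyond 0.5 in size, 9 below and 4 above.

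The longest stretch ran over 268 genes of chromosome 3 from LHFPL4 to PDZRN3, with a median of -0.80, and 229 of its genes lay below both lines. On chromosome 10 a stretch of 199 genes from ANKRD16 to CEP55 had a median of -0.79, with 169 genes below both lines. On chromosome 17 a stretch of 179 genes from INPP5K to WSB1 had a median of -0.84, with 145 below both. On chromosome 13 a stretch of 64 genes from N4BP2L1 to TDRD3 had a median of -0.74 and contained RB1, the retinoblastoma tumour suppressor, at 69.8, 57.3 and 82.9 TPM. Lower stretches of 69 and 70 genes lay on chromosome 7, and of 43 genes on chromosome 8, from PCMTD1 to TCEB1, with a median of -1.07.

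The longest higher stretch ran over 99 genes of chromosome 8 from MTMR9 to HGSNAT, with a median of 0.84, and 85 of its genes lay above both lines. BNIP3L, STC1, ADAM28 and BLK, described above, lie between MTMR9 and HGSNAT in gene order. Toward the end of chromosome 3, a stretch of 32 genes from SLC7A14 to VWA5B2, in which SOX2 lies, had a median of 0.58 and one of 25 genes from FGF12-AS2 to PAK2 a median of 0.68. The stretch of 27 genes on chromosome 5, from ANKRD32 to APC, differed from these. Its medians against the mean of the respective other lines were 0.64 in MKL-2, 0.75 in MKL-1 and -1.23 in WaGa.

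Tested genes that had not been used to find these stretches, because they were below 5 TPM in some line, were counted by place. In the higher stretches 22.2% of 153 such genes were higher in MKL-2 and 2.61% lower, with a median difference of 0.61. In the lower stretches 14.3% of 768 were lower and 8.33% higher, with a median difference of -0.52. Elsewhere 11.04% of 6749 were higher and 7.71% lower, with a median difference of -0.01. Genes standing apart were thus also found outside the stretches in large numbers. In each place, genes below 1 TPM in both MKL-1 and WaGa were tested only because MKL-2 was high, so the filter fixed their direction. The shares of higher genes therefore do not by themselves show a direction.

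**Figure D5:**
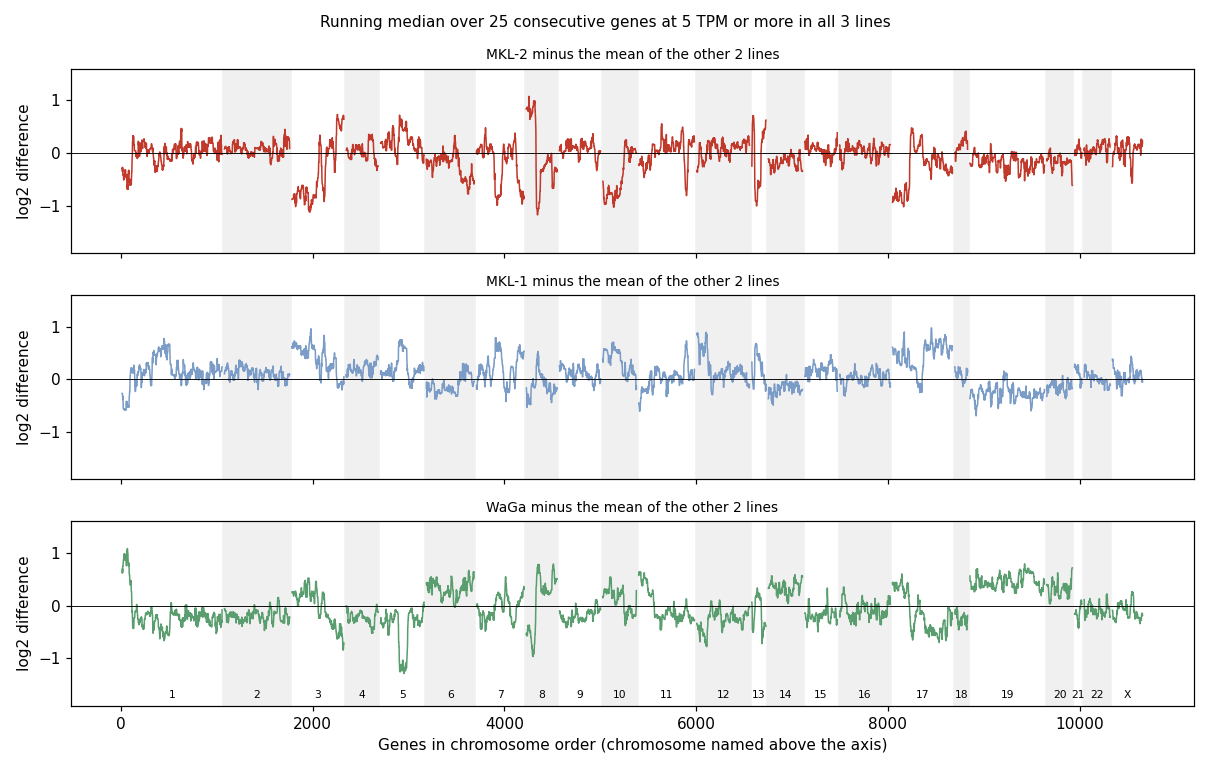
The running median over 25 consecutive genes of the difference of each line from the mean of the other 2 (y axis, log2 scale) is plotted in gene order (x axis), with chromosomes named above the axis and shaded in turn. MKL-2 (top) lies near -0.80 over much of chromosome 3 and the first parts of chromosomes 10 and 17 and near 0.84 over the start of chromosome 8; because the lines are compared with each other, a low stretch in one line raises the others.

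Promoters of the genes standing apart differed in CpG content. The window of 300 bases had an observed to expected CpG ratio of 0.6 or more for 86.6% of tested protein-coding genes, for 73.7% of genes higher in MKL-2 and for 80.6% of those lower. Among genes at 10 TPM in MKL-2 and under 1 TPM in both others with a promoter the share was 66.7% (34 of 51), and among those with the reverse pattern 90.7% (39 of 43). Matching sets of MKL-1 and WaGa were not examined, so these shares cannot be called particular to MKL-2. These shares are given as a description, with no test.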

How the data were processed

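RNA of MKL-1, MKL-2 and WaGa, 1 library per line, was compared. MCC13 and REH are given as reference values. Levels are TPM computed by the authors and deposited per gene. The submitters' processing notes name hg19 and GRCh37, SAMtools 0.1.19, StringTie 1.3.5, STAR 2.4.5b and bcl2fastq 2.20 without roles. The annotation is not stated. TPM keeps no depth, so the depth behind each gene is unknown, no interval is given and a few abundant genes move all others. The PAX5 exon values are a signal that the authors deposited after scaling reads per exon by library, judging from the values. Dividing each library by its smallest step gave whole numbers within 4.6e-06, and shares come from those reads. The 2 columns that matched no sample were not used.

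Genes reaching 1 TPM in any of the 3 lines were compared on log2(TPM + 1), with the gap to the nearer line and limma 3.58.1 in R 4.3.3 (variance trend, 2-sided, adjusted p under 0.05); a lone line is assumed to vary as the others do. The calculation was tested on simulated data. Of the gene IDs 52338 were found in GENCODE 29, used for gene order and types and not for coordinates. Names were chosen by rule: the 20 largest gaps per direction at 10 TPM or more, 3 non-coding genes per direction, up to 4 members per list and direction, all PAX genes and cell markers. Clone names, pseudogenes, antigen receptor segments, sex-linked marker genes and the 246 symbols shared by several IDs were passed over. Neighbours, hosts and list members with gaps under 1 are outside this rule and were picked with their values in view. The members, the 44 lists and the added lists (hypoxia, glycolysis, metallothionein and glutathione transferase) were chosen with earlier results of these data known. Of 1456 listed symbols 1443 were matched. Some genes that the rule names, and 1 added list, are not reported here. Promoters are from RefSeq (GRCh38.p14). Figures and shares used Python 3.11.15, pandas 2.3.3, numpy 2.4.6 and scipy 1.17.1.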

Additional observations from a re-analysis of the deposited data

How the results depend on the processing

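The main counts were 1162 higher and 1098 lower genes at a gap of 1. They changed by more than 1.5 times under these settings: 1746 lower with a pseudocount of 0.1 (1611 higher), 530 higher and 485 lower with a pseudocount of 5, 315 and 265 at a gap of 2 or more, and 765 and 439 with MCC13 added. With 1 line left out the higher genes numbered 2077 to 2296 and the lower 2479 to 2599. Because the gap is taken to the nearer line, leaving out a line can only keep or raise these counts. Adding a line can only keep or reduce them. Quantile normalization gave 1235 and 1002, median-of-ratios scaling 1234 and 1025, a filter of 5 TPM 775 and 958, and protein-coding genes alone, a setting chosen after seeing the data, 829 and 868. limma called 0 genes in each alternative run, and without MKL-1 or WaGa it has no residual degree of freedom. Of 221 named genes standing apart, 220 still did so after quantile normalization, 160 with a pseudocount of 5 and 114 with MCC13 added. With MCC13 added, 140 of the 221 still lay beyond all other lines in the same direction. In these settings 0 changed sign, which a new pseudocount or an added line could not have caused. No chromosome median moved by 0.1 or more with a filter of 1 TPM. No paired analysis was possible because each line has 1 library and the lines share no source. The depth behind TPM is unknown, so low levels cannot be told from noise.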
